A study of Homo sapiens with 7 samples.

Results

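hsa-miR-204-5p, a microRNA known from pigment cells, is described here across 7 small RNA capture libraries. It was chosen by name, as the row whose mature name is miR-204-5p, and is 1 of 480 mature microRNAs in the table. The libraries come from A375, a human melanoma cell line, and address which microRNAs bind BRAF-X1, an alternative transcript of the BRAF kinase gene. In all groups, cells were harvested 24 h after seeding and crosslinked with 1% formaldehyde for 10 min. In the miR-CATCHv2.0 protocol a chosen mRNA is then pulled down with probes, and the microRNAs held on it are sequenced. In 3 libraries the BRAF-X1 3' UTR was captured with the ODD probe set, in 3 with the EVEN probe set, and 1 library was made with scrambled probes, the background control. ODD and EVEN together are called X1 probes below. The captures were independent per the series' design text, all from the same cell line.

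A microRNA guides Argonaute proteins to mRNAs, mostly through pairing of its seed, bases 2 to 8, with a site in the 3' UTR. miR-204 is made from an intron of TRPM3 and its close relative miR-211 from an intron of TRPM1, a gene driven by MITF, the main transcription factor of melanocytes. Both are abundant in the retinal pigment epithelium, and miR-211 is often lost in melanomas that have lost pigmentation.

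The sequences show mature miR-204-5p and how close its relatives are. They are RefSeq's, on GRCh38.p14, with the seed in capitals; RNA is written 5′ to 3′.
miR-204-5p: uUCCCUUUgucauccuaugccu
miR-211-5p: uUCCCUUUgucauccuucgccu
miR-204-3p: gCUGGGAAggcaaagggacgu
miR-623: aUCCCUUGcaggggcuguugggu

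Among 2370 mature human microRNAs in the RefSeq table, 2 carried the seed of miR-204-5p, miR-204-5p itself and miR-211-5p. They are identical at 20 of 22 positions and differ by A17U and U18C, miR-204-5p's base first and positions counted from the 5′ end. No row named miR-211-5p was found in the table, and miR-211-5p was not analysed here. A read cut short before position 17 could not tell the pair apart, and how the authors counted such reads is not stated in the sources used. The microRNA with a row that shares bases 2 to 7 but not base 8, miR-623, had 2 reads, both in EVEN replicate 2. The MIR204 gene lies at chr9:70809975-70810084 on the minus strand, inside the span of TRPM3. Its hairpin is 110 bases long, with the 5p arm at positions 33 to 54 and the 3p arm at positions 72 to 92, and the table counted both arms. The 3p arm holds the exact complement of the 5p seed, AAAGGGA, at its positions 12 to 18, where the arms face each other in the stem; the same sequence with this stretch in capitals is shown next.
miR-204-3p with the complement of the 5p seed: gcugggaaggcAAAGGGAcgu

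The reads came almost wholly from the 5p arm. miR-204-5p had 156 reads over the 7 libraries and miR-204-3p had 1, in ODD replicate 2, where 1 read is worth 28.2 RPM. RPM is reads of a microRNA with the library's total scaled to 1e+06. At a count of 0, the exact 95% upper limit for miR-204-3p ran from 255 RPM in EVEN replicate 2 to 911 RPM in ODD replicate 3.

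Depth set the precision of every value. Recovered from the RPM steps, the libraries held 4049 to 35508 reads, with 4647 in the scrambled capture. These totals sum all rows, including the several rows of a mature microRNA listed under more than 1 hairpin. Whether a read was counted in each such row is not stated. With 1 row kept per mature name, the totals ran from 3046 in ODD replicate 3 to 25679 in ODD replicate 2. The scrambled capture then had 3479. RPM, shares and intervals here use the totals over all rows. The step of 1 read ranged from 28.2 RPM in ODD replicate 2, the deepest library, to 247 RPM in ODD replicate 3, and was 215 RPM with scrambled probes. Clopper-Pearson (exact) 95% intervals were taken on the reads; they hold counting error alone, because PCR copies of a molecule were not told apart.

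miR-204-5p had reads in every library. In the ODD captures it had 25 reads or 2310 RPM in replicate 1 (95% interval 1496 to 3408), 48 reads or 1352 RPM in replicate 2 (997 to 1792) and 10 reads or 2470 RPM in replicate 3 (1185 to 4537). In the EVEN captures it had 22 reads or 2368 RPM in replicate 1 (1484 to 3582), 33 reads or 2277 RPM in replicate 2 (1568 to 3196) and 14 reads or 2937 RPM in replicate 3 (1607 to 4923). The scrambled capture had 4 reads, or 861 RPM (235 to 2202). All 6 X1-probe libraries therefore lay above the scrambled library, and 5 lay above the upper end of its interval. The intervals of all 6 still overlapped that of the scrambled library. The lowest X1-probe value came from the deepest library, ODD replicate 2; the part of depth in this was not tested.

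**Figure D1:**
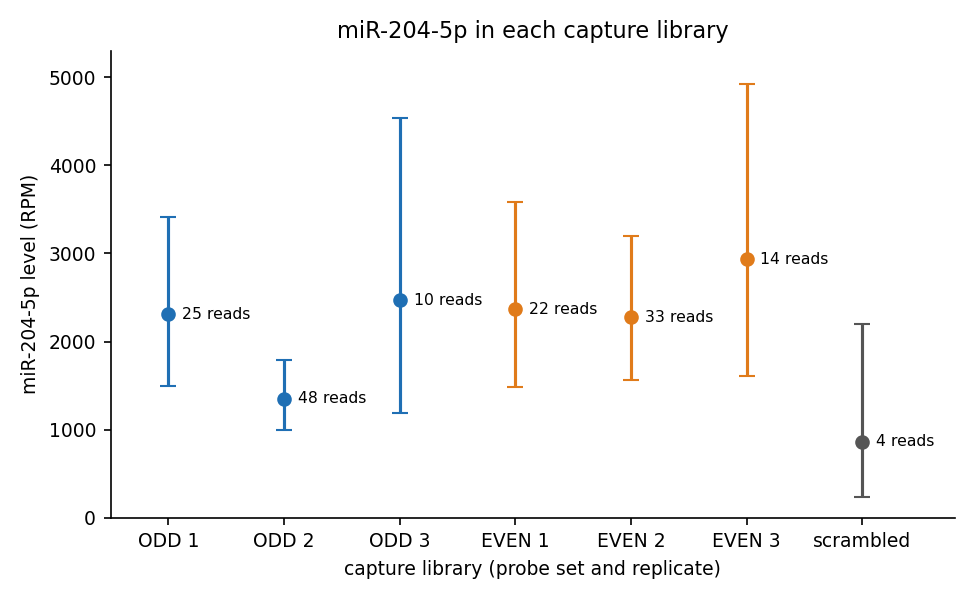
Level of miR-204-5p (RPM, vertical axis) in each capture library, with exact 95% intervals on reads as bars and the read count beside each point. The 6 X1-probe libraries sit between 1352 and 2937 RPM and the scrambled library at 861 RPM, with an interval that overlaps all the others.

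By rank, miR-204-5p stood between 41st and 56th of the mature microRNAs in the X1-probe libraries, and 73rd in the scrambled library, where 12 microRNAs shared its count of 4 reads. The mean over the X1-probe libraries was 2286 ± 517 RPM (SD, n = 6), the 50th highest. The highest X1-probe library was 2.17 times the lowest. As shares of the reads summed over all rows, the X1-probe libraries ran from 0.135% to 0.294% and the scrambled library had 0.0861%.

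The comparison of X1 probes with scrambled probes asks whether a microRNA is captured above background. The X1-probe mean of miR-204-5p was 2.66 times the scrambled value, and it did not pass over all microRNAs. On the log2(RPM + 10) scale the difference was 1.36 with an SE of 0.50 (95% interval 0.35 to 2.38, limma adjusted p = 0.310 over 242 tested microRNAs, higher in 6 of 6 libraries), the 6th smallest p of the 242. Those bounds correspond to a 1.27-fold and a 5.19-fold difference. The scrambled group is 1 library, so limma assumed that it varies like the other groups. An exact permutation test over the 7 libraries cannot go below 0.143, the value it gave (two-sided). As background, 0.826% of the 242 tested microRNAs passed as higher with X1 probes, miR-184 and miR-17-5p, and 0% as lower. The filter of at least 10 RPM in at least 3 of 7 libraries left out microRNAs with reads in the scrambled library alone, so these could not pass as lower. With no filter, 3 of 480 passed as higher and 9 as lower. Of the 242, 7.02% were higher at an unadjusted p under 0.05 by limma, a group that holds miR-204-5p, and 1.65% lower. All 6 X1-probe libraries lay above the scrambled one for 11.2% of the tested microRNAs, for 9.7% of the 165 tested with at least 1 scrambled read and for 13.2% of the 68 with a mean of at least 1000 RPM. All 6 lay below it for 22.7% of the tested microRNAs.

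Most larger differences in this comparison belonged to microRNAs with few reads. miR-204-5p ranked 79th of 242 by log2 difference, behind many microRNAs with 0 scrambled reads, whose size is set by the pseudocount. Among the 96 with a mean of at least 500 RPM it ranked 4th, behind miR-184, miR-17-5p and miR-130b-3p, which had 0, 0 and 1 scrambled reads. Among the 68 at 1000 RPM or more it ranked 1st, followed by miR-31-5p at 1.15, miR-140-3p at 1.06 and let-7f-5p at 0.78. The cut is on the mean over 7 libraries, 6 of them with X1 probes, so it favours microRNAs higher with X1 probes. miR-204-5p passed it through those libraries, with 861 RPM in the scrambled one, so its rank is a description only. The median of those 68 was -0.083, and that of all 242 was 0.096. miR-204-5p also ranked 1st of the 68 in each of the 18 alternative settings. All of them use the same 4 scrambled reads and the same 68 microRNAs, so they are no separate check. By limma 0 of the 68 passed in this comparison, in the fit over all 242 or of these 68 alone, where limma's unadjusted p was under 0.05 for 5 higher and 3 lower microRNAs of the former fit; limma voom on recovered reads called 0.

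**Figure D2:**
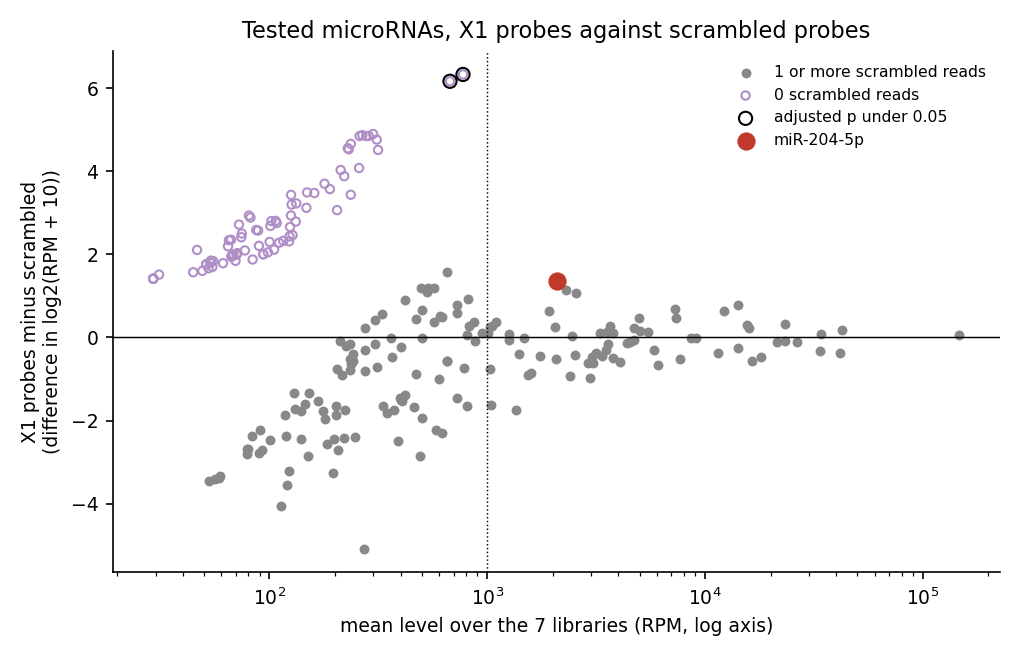
Difference between X1 probes and scrambled probes in log2(RPM + 10) (vertical axis) against the mean level over the 7 libraries (RPM, log axis) for the 242 tested microRNAs; open purple points had 0 scrambled reads and black rings mark an adjusted p under 0.05. Right of the dotted line at 1000 RPM, miR-204-5p (red, 1.36) is the highest point.

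The probe sets were next compared singly with the scrambled capture. With ODD probes miR-204-5p had 2044 ± 605 RPM (SD, n = 3), 2.37 times the scrambled value (limma, log2 difference 1.19, 95% interval 0.10 to 2.27, adjusted p = 0.415, higher in 3 of 3). With EVEN probes it had 2527 ± 358 RPM (SD, n = 3), 2.94 times the scrambled value (limma, log2 difference 1.53, 95% interval 0.45 to 2.62, adjusted p = 0.367, higher in 3 of 3). Both comparisons use the same 4 scrambled reads, so neither is a check on the other. The tested microRNAs that passed as higher were 0.826% with ODD and 0.826% with EVEN probes. With either, 0% passed as lower, under the same filter, which left out microRNAs with reads in the scrambled library alone. At limma's unadjusted p under 0.05, 7.44% were higher and 1.65% lower with ODD probes, and 6.2% higher and 2.07% lower with EVEN probes. miR-204-5p was in the higher group in both. Without ODD replicate 1 or without ODD replicate 3, the 95% interval for ODD minus scrambled spanned 0 (-0.074 to 2.23 and -0.15 to 2.20), and miR-204-5p was no longer in that group. Among the 68 with a mean of at least 1000 RPM, under the same cut, miR-204-5p ranked 3rd with ODD and 1st with EVEN probes by log2 difference. Among the 96 with a mean of at least 500 RPM it ranked 8th and 4th.

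The sample descriptions carry a number, and the scrambled library shares the number 12 with ODD replicate 3 and EVEN replicate 3. What it marks is not stated. These 3 libraries were also close in depth, at 4647, 4049 and 4767 reads summed over all rows. Within them miR-204-5p had 4 reads with scrambled probes against 10 with ODD and 14 with EVEN probes. The ODD value was 2.87 times and the EVEN value 3.41 times the scrambled one, and with 1 library each there is no test.

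The ODD and EVEN probe sets address the same transcript. Their miR-204-5p levels overlapped: 2 ODD libraries lay above the lowest EVEN library. The log2 difference, ODD minus EVEN, was -0.34 with an SE of 0.38 (95% interval -1.11 to 0.42, limma adjusted p = 0.979), and the exact permutation test gave p = 0.5 (two-sided; 0.1 is the smallest possible with 3 against 3). The interval allows ODD to be anywhere from 0.463 to 1.34 times EVEN. Without ODD replicate 2 the difference was -0.072, so most of its size came from that library. As background, 0.413% of the tested microRNAs passed as lower with ODD probes, 0% as higher, and at limma's unadjusted p under 0.05 the shares were 2.07% higher and 2.48% lower, miR-204-5p in neither; ODD and EVEN libraries did not overlap for 7.02%.

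**Figure D3:**
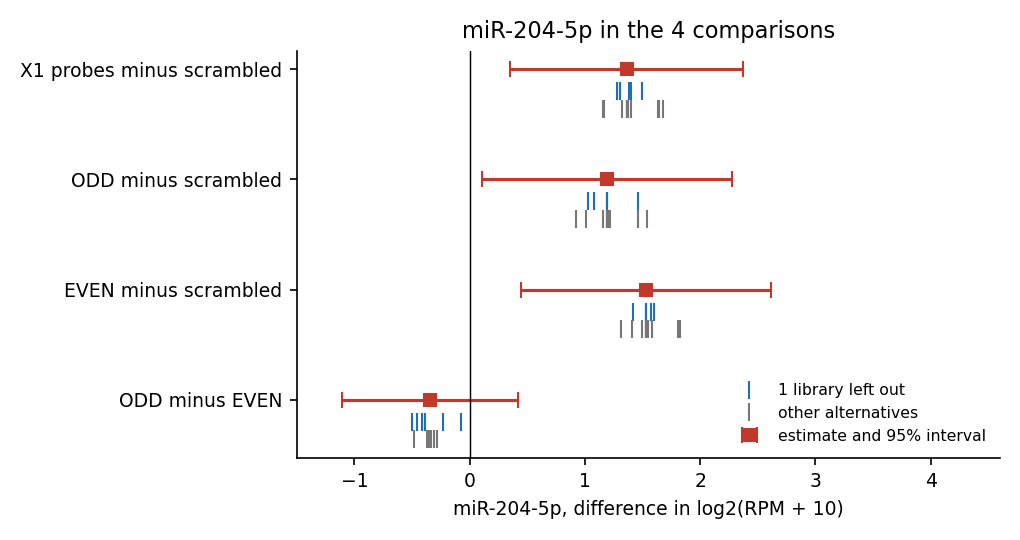
Difference in log2(RPM + 10) of miR-204-5p (horizontal axis) in the 4 comparisons, with the limma estimate and 95% interval (red), the values with 1 library left out (blue) and under the other alternatives (grey). The comparisons with scrambled lie above 0, from 1.19 to 1.53, and ODD minus EVEN lies at -0.34 with an interval across 0.

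The microRNAs next to miR-204-5p in mean X1-probe level show how such values vary in these libraries. Just above it were miR-31-5p with 2512 ± 905 RPM, miR-30e-5p, of the miR-30 family, with 2473 ± 700 RPM, and miR-378a-3p, carried in an intron of PPARGC1B, with 2421 ± 417 RPM (SD, n = 6 each). Just below it were miR-3180 with 2160 ± 833 RPM, miR-30c-5p with 2111 ± 608 RPM and miR-27a-3p with 2035 ± 420 RPM (SD, n = 6 each). All 6 means lay within 1 SD of the mean of miR-204-5p, so the order among them is not resolved. Read shares of different microRNAs also depend on how well each sequence is ligated and amplified.

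With scrambled probes the neighbours spread more widely. They had 5 reads for miR-31-5p, 11 for miR-30e-5p, 15 for miR-378a-3p, 18 for miR-3180, 8 for miR-30c-5p and 6 for miR-27a-3p, against 4 for miR-204-5p. miR-31-5p and miR-27a-3p were, like miR-204-5p, above scrambled in 6 of 6 X1-probe libraries, while miR-378a-3p and miR-3180 were below it in 6 of 6. For X1 probes minus scrambled the neighbours did not pass by limma; their log2 differences ran from -0.93 for miR-3180 (adjusted p = 0.660) to 1.15 for miR-31-5p (adjusted p = 0.426).

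**Figure D4:**
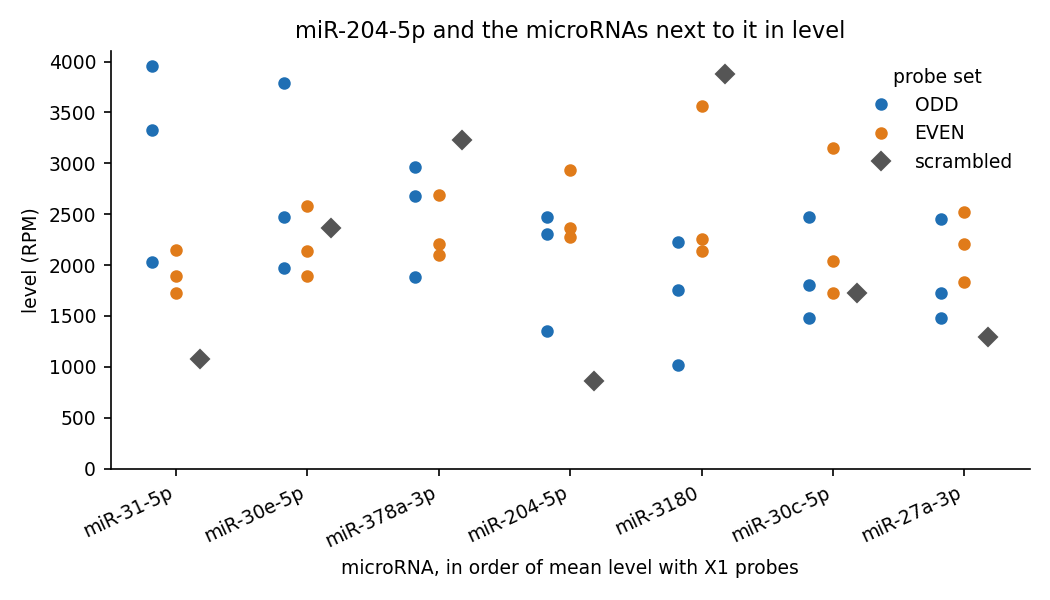
Level (RPM, vertical axis) of miR-204-5p and the 3 microRNAs on either side of it in mean X1-probe level, with ODD libraries in blue, EVEN libraries in orange and the scrambled library as grey diamonds. The scrambled value of miR-204-5p, 861 RPM, is the lowest of the 7, and that of miR-3180, 3873 RPM, the highest.

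The microRNAs most like miR-204-5p across libraries were sought by Pearson r of log2(RPM + 10) over the 7 libraries, among 95 other tested microRNAs with a mean of at least 500 RPM. They were miR-184, known from cornea and lens (r = 0.896), miR-17-5p, from the cluster that starts with it (r = 0.854), miR-140-3p, carried in an intron of WWP2 (r = 0.773), miR-130b-3p (r = 0.719) and miR-25-3p, carried in an intron of MCM7 (r = 0.541). The 95 values ran from -0.769 to 0.896 with a median of -0.0914. All are descriptions over libraries that share the scrambled control and differ in depth. Over the 6 X1-probe libraries alone the values were 0.626 for miR-184, 0.356 for miR-17-5p, 0.216 for miR-140-3p, 0.276 for miR-130b-3p and 0.367 for miR-25-3p, so much of each likeness rested on the scrambled library. In that library 0 reads fell on miR-184 and on miR-17-5p, while miR-130b-3p had 1, miR-140-3p 6 and miR-25-3p 17. miR-184 shared the low value in ODD replicate 2, with 14 reads or 394 RPM against 554 to 1976 RPM in the other X1-probe libraries.

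Other microRNAs of the melanocyte pathway were read beside miR-204-5p. Of 11 names reported to target MITF, with miR-137 listed also as miR-137-3p, 9 had a row and 6 were tested. By limma or by limma voom 0 passed in either direction in any of the 4 comparisons, and 0 reached an unadjusted p under 0.05 by limma. Their median log2 difference, X1 probes minus scrambled, was 0.42, against 0.096 over all 242. The most abundant were miR-182-5p, of the miR-183 cluster, with 7264 ± 1368 RPM (SD, n = 6) against 10329 RPM with scrambled probes, below it in 6 of 6 libraries, and miR-26a-5p with 7655 ± 2004 RPM (SD, n = 6) against 5380 RPM, above it in 6 of 6. miR-148a-3p had 516 ± 321 RPM (SD, n = 6) against 215 RPM with scrambled probes, above it in 5 of 6 libraries. miR-101-3p had 320 ± 137 RPM (SD, n = 6) against 215 RPM, also above it in 5 of 6. These X1-probe levels rest on 38 and 22 reads summed over 6 libraries, and each scrambled level on 1 read.

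Of 14 microRNAs associated with melanoma, 12 had a row and 11 were tested. By limma or limma voom 0 passed in any of the 4 comparisons. At limma's unadjusted p under 0.05, 1 was higher, for ODD minus scrambled, where 7.44% of all tested were. Their median for X1 probes minus scrambled was -0.025. miR-21-5p, raised in many tumours, had 23955 ± 3927 RPM (SD, n = 6) against 18937 RPM. miR-222-3p and miR-221-3p, which act on the cell cycle inhibitor p27, had 17169 ± 4623 against 23241 RPM and 9132 ± 2302 against 9038 RPM, and miR-10b-5p had 10964 ± 1119 against 14203 RPM (SD, n = 6 each). Of 18 other microRNAs carried in introns of host genes, as miR-204 is, 17 had a row and 13 were tested. By limma and limma voom 0 passed for X1 probes minus scrambled. At limma's unadjusted p under 0.05, 2 of the 13 were higher, against 7.02% of all tested. They were miR-140-3p and miR-128-3p, named after their values were seen. The median of the 13 was -0.070. Of these 13, 3 lay above scrambled in all 6 X1-probe libraries and 3 below it, against 11.2% and 22.7% of all tested.

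Pigment-cell markers were read beside the labelled cell type. The libraries hold captured microRNAs at low depth, so the presence or absence of a marker in them cannot check the cell type. Of the 4 pigment-cell markers, 2 had a row. miR-204-5p had reads in every library, but as the microRNA described here it is no separate check. miR-204-3p had 1 read over the 7 libraries, and miR-211-5p and miR-211-3p had no row. Of 14 microRNAs of the X-linked cluster known from melanocytes and melanoma, 1 had a row, miR-509-3p. With X1 probes it had 71.4 ± 101 RPM (SD, n = 6), from 5 reads summed over 6 libraries. With scrambled probes it had 215 RPM, from 1 read. Of the markers of eye and retinal pigment epithelium, 5 of 6 had a row and 4 were tested. Of the 4, 1 passed as higher with X1 probes by limma, against 0.826% of all tested. It was miR-184 (52 reads against 0, limma adjusted p = 0.000358), a call that rests on 0 scrambled reads and was not made by limma voom. The summed level of these eye markers was 8501 to 13090 RPM with X1 probes and 11620 RPM with scrambled probes. That sum includes miR-204-5p itself and was mostly miR-182-5p, which had 7264 ± 1368 RPM (SD, n = 6) with X1 probes and 10329 RPM with scrambled probes. miR-182-5p is also among the microRNAs listed above for MITF and for melanoma.

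With X1 probes, the summed markers of each cell type given next lay below the lowest level of miR-204-5p, 1352 RPM. With scrambled probes the neuronal markers lay above miR-204-5p and the others below it. Epithelial markers (3 of 8 names with a row, miR-203a being listed also as miR-203a-3p) summed to 108 to 494 RPM with X1 probes and 0 RPM with scrambled probes. Among those without a row were miR-200c-3p and miR-429. Blood markers (5 of 7) summed to 0 to 629 RPM against 215 RPM, muscle markers (2 of 4) to 84.5 to 741 RPM against 646 RPM, and endothelial markers (2 of 2) to 0 to 420 RPM against 430 RPM. Neuronal markers (2 of 3) summed to 92.4 to 494 RPM against 1291 RPM with scrambled probes, where miR-204-5p had 861 RPM, and the liver marker miR-122-5p had no row. Of these markers only 2 epithelial, 1 blood, 2 muscle, 1 neuronal and 1 endothelial were tested. By limma or limma voom 0 of those tested passed for X1 probes minus scrambled, and 0 had limma's unadjusted p under 0.05. The part of these markers in the result for miR-204-5p was not tested.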

How the data were processed

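The authors deposited RPM, written with decimal commas, for 498 hairpin and mature pairs; the unit comes from the values, since each column sums to 1e+06. CASAVA 1.8 and cutadapt 1.2.1 were used, per the submitters' processing notes; no source used here names the aligner, counting rule, annotation or build. Dividing each column by its smallest non-zero value gave whole reads for 100% of values (tolerance 1e-06). Of 480 mature names, 17 had several hairpin rows, of which the most abundant was kept; miR-204-5p had 1 row. RefSeq sequences matched 406 names.

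Groups came from the titles. limma 3.58.1 (R 4.3.3) was fitted to log2(RPM + 10) with a mean per group, an eBayes trend and Benjamini-Hochberg adjustment at 0.05, for microRNAs of at least 10 RPM in at least 3 of 7 libraries. The script was tested on simulated data. Replicate numbers were not taken to pair the captures. The member, the lists, the tests and the rule for named microRNAs (level neighbours, the 5 most alike, the most abundant of each list) were chosen with earlier results of these data known. limma's p-values rest on the spread between captures within the ODD and EVEN groups, moderated towards a trend over all tested microRNAs. That trend weighed more than the microRNA's own spread (28.6 prior against 4 residual degrees of freedom). The scrambled group, 1 library, adds no spread.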

Additional observations from a re-analysis of the deposited data

Results flagged for a closer look

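In 23 sets of 6 X1-probe libraries checked, 5 held a library far from the others, where the gap to the nearest library over the whole range exceeded Dixon's 95% critical value for 6; chance gives this to about 1 set in 20. For miR-204-5p the ratio was 0.672 on the log2(RPM + 10) scale, with ODD replicate 2 low at 1352 RPM, and 0.584, under the critical value, on the RPM scale. miR-184 (0.682) and miR-130b-3p (0.776) were high in ODD replicate 3, at 1976 and 1482 RPM. miR-30e-5p (0.634) was high in ODD replicate 1, at 3789 RPM, and miR-9-5p (0.629) was low there, at 92.4 RPM.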

How the results depend on the processing

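The log2 difference of miR-204-5p kept its direction and did not pass in any of the 4 comparisons under 18 alternatives each. For X1 probes minus scrambled it ran from 1.16 to 1.68 (adjusted p from 0.148 to 0.991, interval above 0 in 16 of 18; without the eBayes trend and with limma voom it spanned 0), for ODD minus scrambled from 0.93 to 1.54 (above 0 in 14 of 18; it spanned 0 under those settings and without ODD replicate 1 or 3), for EVEN minus scrambled from 1.31 to 1.83 (above 0 in 17 of 18; it spanned 0 with voom), and for ODD minus EVEN from -0.50 to -0.072. TMM scaling moved the median of all tested for X1 probes minus scrambled from 0.096 to 0.41 and the share above 0 from 52.5% to 61.6%; miR-204-5p stood 1.27 above the median in both. The replicate block gave 1.63 for X1 probes minus scrambled (limma adjusted p = 0.386) and 0 calls in every comparison. To check pairing, each microRNA's ODD or EVEN mean was subtracted and the remaining deviations were correlated between libraries. For same-numbered ODD and EVEN libraries these correlations were -0.044, 0.073 and 0.019, so the numbers are not taken to pair them. The deviations of not every library correlated best with those of its own number.

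Counts of called microRNAs were 2, 2, 2 and 1 for X1 probes, ODD and EVEN minus scrambled and ODD minus EVEN. In the same order they were 0, 0, 1 and 1 at pseudocount 250 and at a mean of at least 1000 RPM, 12, 11, 12 and 0 with no filter (9 of them lower in each comparison with scrambled), 1, 0, 0 and 0 under quantile scaling, and 1 each with voom, all lower, which was chosen after seeing the data. Without the eBayes trend they were 3, 0, 2 and 3. ODD minus EVEN had 0 calls at pseudocount 1, under TMM scaling and without repeated hairpin rows in the total, and 2 with all hairpin rows. Leaving out 1 library gave 2 to 3 calls against scrambled and 0 to 3 for ODD minus EVEN (0 without ODD replicate 1 or 3, 3 without EVEN replicate 1, 2 without EVEN replicate 2). The planned count-model tests on recovered reads were not run. With 4 scrambled reads, counting error limits every comparison with scrambled, and the scrambled library cannot be left out.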
